A study of Mus musculus with 18 samples.

Results

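The genes described here are 36 mouse genes of DNA replication and S phase entry, chosen by name for their known roles, with earlier results of these data known. All 36 were found among the 53465 gene identifiers of the deposited table, and all 36 passed the filter on low counts in each of the 5 comparisons. They were the origin licensing genes Orc1, Orc6, Cdc6, Cdt1 and Mcm2 to Mcm7, the helicase activation genes Mcm10, Cdc45 and Gins1 to Gins4, and the polymerase and primase genes Pola1, Pola2, Prim1, Prim2, Pold1 and Pole. The remaining members were the sliding clamp gene Pcna, the clamp loader genes Rfc1 to Rfc5, the lagging strand genes Fen1 and Lig1, the nucleotide synthesis genes Rrm1, Rrm2 and Tyms, and the S phase entry genes E2f1, Ccne1 and Ccne2.

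RNA was sequenced from 9 mouse embryos at embryonic day 9, with 20 to 24 somites. Of these, 5 were controls and 4 were double knockouts (DKO), in which Meis1 and Meis2 were both deleted conditionally by a Cre recombinase expressed from Delta1 (Dll1). Each embryo was cut into a posterior piece, the axial bud with the newest 10 to 12 somites, and an anterior piece, the rest of the axis that bears somites, without the regions in front of the somites. The groups were anterior control (n = 5), posterior control (n = 5), anterior DKO (n = 4) and posterior DKO (n = 4), and each library came from a single embryo. The labels do not say which alleles or Cre the controls carried, and strain is not given. The pieces hold every tissue at that level of the axis, including cells in which a Delta1-driven Cre would not be active.

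Libraries held 12.7 to 38.2 megacounts (M) of expected counts, and the 36 genes together took 0.610% to 0.682% of them. Levels are given as CPM, counts per megacount with library sizes scaled by the TMM method (a trimmed mean of log ratios). Meis1 was at 113 to 135 CPM in anterior controls and 89.8 to 111 CPM in anterior DKO libraries, and Meis2 at 177 to 203 and 130 to 157 CPM. In the posterior piece Meis1 was at 59.6 to 99.9 and 46.7 to 72.0 CPM, and Meis2 at 117 to 162 and 91.2 to 116 CPM. Both genes were thus still detected in every DKO library, and gene-level counts do not tell deleted from remaining exons. The defining axial bud genes Msgn1 and Cdx4 reached at most 0.310 CPM in any anterior library and were at 10.6 to 27.6 CPM and 50.1 to 132 CPM in the posterior ones. One library stood apart for these genes: the posterior library of DKO embryo 4 was the highest of all 18 libraries for 11 of the 36 genes and the lowest for 5. In that library the deviation of a gene from the other posterior DKO libraries had a Spearman correlation with its exon length of −0.615 over 8547 coding genes with at least 10 CPM in every library, against −0.347 to 0.369 in the other 17. Over the 36 genes alone the correlation was −0.325, within the −0.408 to 0.472 of the other 17. The posterior library of control embryo 5 was the lowest of the 18 for 12 of the 36 genes.

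Before a cell enters S phase, the origin recognition complex, Cdc6 and Cdt1 load the ring of MCM2 to MCM7 proteins on DNA, a step called licensing. Cdc45 and the GINS complex then join the ring to form the active helicase, with the help of Mcm10. Polymerase alpha and primase lay down primers, the RFC complex loads the PCNA clamp, and polymerases delta and epsilon extend the strands. Transcription of most of these genes is driven by E2F factors at the transition from G1 to S phase, so that their RNA is widely read as a measure of how many cells are cycling. Most cells of the axis at this stage of mouse development are still dividing, while neurons and muscle cells that differentiate leave the cycle.

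Sequences of the start sites are shown first, because a shared E2F motif is the feature these genes are best known for. The RefSeq table of GRCm38.p6 promoters, which runs from 250 bases before to 50 bases after each start site, held 28 of the 36 genes. The E2F letters TTTCCCGC, TTTCGCGC, TTTGCCGC and TTTGGCGC were searched on both strands. They were found for 12 of the 28 genes (42.9%, exact 95% binomial interval 24.5% to 62.8%), and for 546 of 16504 coding genes (3.31%). The share was 3.60% of the 14735 coding genes whose window had a GC content within the range of the members, 38.7% to 77.3%. That range holds most coding genes, so GC content was not matched. Its median was 61.3% for members and 57.7% for coding genes, and its part in the share of matches was not tested. The matches fell on 7 of 9 licensing genes, 2 of 4 polymerase and primase genes, 2 of 7 clamp, loader and ligation genes, 1 of 3 helicase activation genes, 0 of 3 nucleotide genes and 0 of 2 S phase entry genes. A match is a run of letters and was not tested for binding. In the following 30-base stretches, given 5′ to 3′ on the strand of the gene, capitals mark the matching letters or their reverse complement. In Mcm5 and Mcm6 matches on both strands overlap by 4 bases.
Orc1, chr4:108579416-108579445, plus strand: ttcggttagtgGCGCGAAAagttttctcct
Cdc6, chr11:98908002-98908031, plus strand: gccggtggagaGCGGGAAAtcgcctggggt
Mcm5, chr8:75109345-75109374, plus strand: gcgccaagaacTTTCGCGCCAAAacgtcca
Mcm6, chr1:128359797-128359826, minus strand: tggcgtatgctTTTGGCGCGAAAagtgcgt
Mcm7, chr5:138172030-138172059, minus strand: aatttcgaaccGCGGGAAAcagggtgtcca
Gins3, chr8:95633507-95633536, plus strand: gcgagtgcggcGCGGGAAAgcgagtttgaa

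Counted from the RefSeq start site, these matches begin 27 bases upstream in Orc1, 138 in Cdc6, 153 in Mcm5, 110 in Mcm6, 165 in Mcm7 and 41 in Gins3. The GENCODE genes begin further upstream in Orc1 (108579423), Cdc6 (98907801), Gins3 (95633453) and Mcm7 (138172422). By that annotation the printed matches of these genes lie inside the gene. In Cdt1 and Mcm3, which are not printed, the matches begin downstream of the RefSeq start site. The windows of E2f1, Prim1, Rfc4, Mcm10 and Rrm2 held none of these letters. The letters CCAAT were in 17 of 28 windows (60.7%) and in 42.1% of coding genes, and TTTGAA, a motif of genes expressed in G2 and mitosis, in 4 of 28 (14.3%) and in 17.6%.

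Transcript levels of the 36 genes spread widely between genes and little between replicates. Per kilobase of exon, the order in anterior controls was led by Pcna at 213 ± 25.5 CPM per kb (SD, n = 5), Rrm2 at 170 ± 16.7, Mcm7 at 111 ± 8.48 and Mcm5 at 107 ± 8.64, and it ended with Pola1 at 9.96 ± 0.426, Prim2 at 8.81 ± 0.617 and Pole at 7.97 ± 1.13. Neighbours in this order often lay within their spread, among them Mcm7 and Mcm5 near the top and Prim2 and Pole at the bottom. The MCM subunits, which form a ring with 1 copy of each, spanned 57.8 ± 3.17 CPM per kb (Mcm2) to 111 ± 8.48 (Mcm7). Per kilobase, Pcna and Rrm2 stood above every MCM subunit, and the 4 polymerase alpha and primase genes and Pole all stood below 20 CPM per kb. The length used is the union of all annotated exons of a gene, 6956 bases for Mcm2 and 3589 for Mcm4. The order per kilobase thus rests on annotation too. In CPM not divided by length, Mcm4 was the lowest MCM subunit at 330, Mcm2 was at 402 and Mcm7 was the highest at 493. The coefficient of variation of a member within a group had a median of 5.30% to 6.64% and a maximum of 14.3%. From the lowest to the highest of all 18 libraries, levels differed by 1.17-fold for Rfc1, at the low end, and by 1.60-fold for E2f1, at the high end.

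The first comparison asked whether replication genes differ between the posterior piece, which holds the axial bud, and the anterior piece. In controls they differed little: 3 of the 36 genes were lower in the posterior piece (8.33%, against 13.3% of all 15294 genes tested) and 1 was higher (2.78%, against 12.1%). Over all genes, 25.4% passed the threshold of an adjusted p below 0.05 by edgeR's quasi-likelihood test with Benjamini-Hochberg adjustment. The lower genes were E2f1, the activator of S phase genes, Prim1, the catalytic primase subunit, and Rfc4, a subunit of the clamp loader. The higher one was Mcm10, which helps to activate the helicase. The median log2 fold change of the members, posterior over anterior, was −0.035 (13 above 0 and 23 below), and that of all genes was −0.0069. In DKO embryos 1 of the 36 genes, E2f1, was lower (2.78%, against 9.7% of all 15777 genes) and 0 were higher (0%, against 8.76%), with 18.5% of all genes called, and the median was 0.0017 (19 above 0 and 17 below, all genes 0.011). With 1 embryo left out the median ran from −0.052 to −0.017 in controls, and from −0.028 (without DKO embryo 4) to 0.025 (without DKO embryo 3) in DKO embryos, where its sign thus turned. The levels of the 2 pieces did not overlap for 5.56% of the members in controls, against 20.1% of all genes. In DKO embryos they did not overlap for 11.1%, against 23.5%. The fits above treated the 2 pieces of an embryo as independent. With the embryo as a block, 7 of the 36 genes passed in controls, where 33.6% of all genes did, and 1 passed in DKO embryos, where 19% did. In a bulk piece, fewer cells that express a gene and less RNA per cell cannot be told apart.

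**Figure D1:**
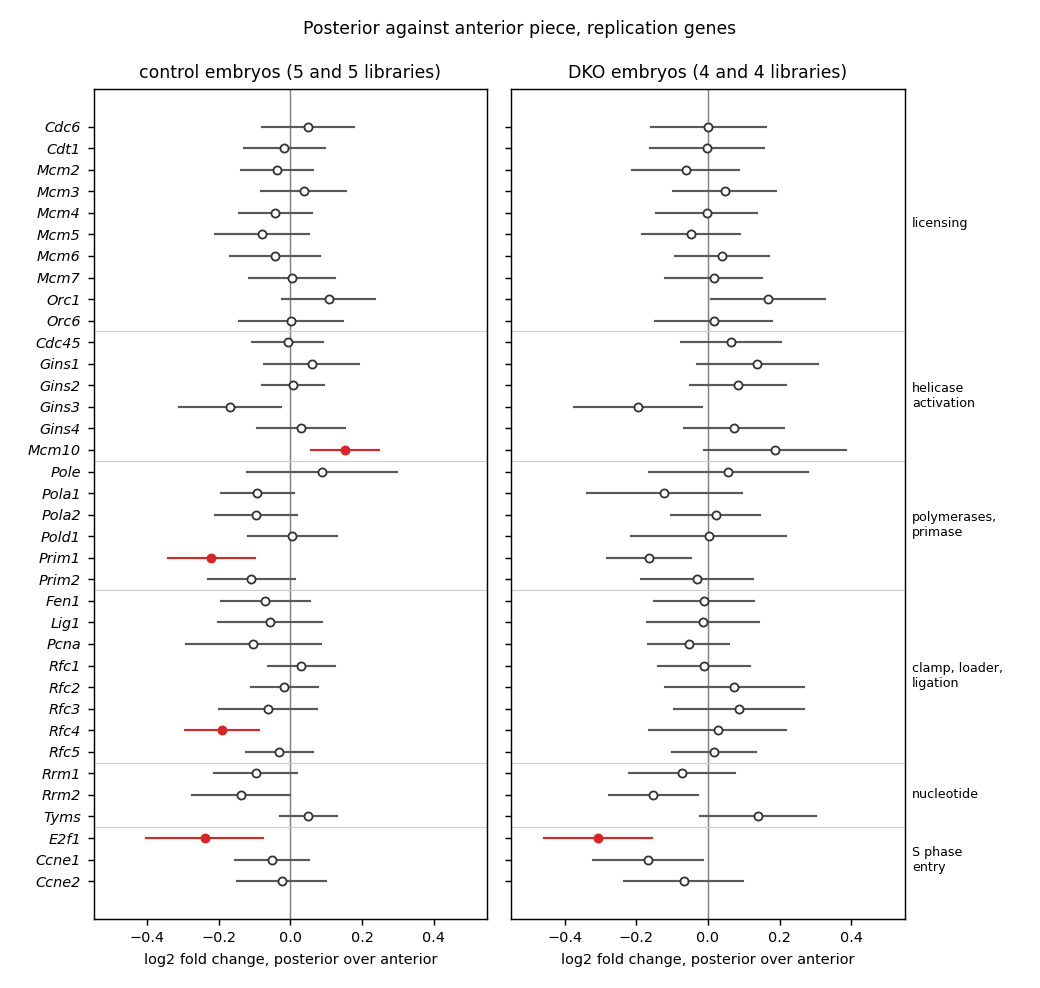
Log2 fold change of each of the 36 genes, posterior over anterior, in control embryos (left) and DKO embryos (right), grouped by role. Points are edgeR estimates, bars are 95% intervals and filled red points passed an adjusted p of 0.05. E2f1, Prim1, Rfc4 and Mcm10 passed in controls and E2f1 in DKO embryos, and every bar lies within 0.5 of 0.

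E2f1 had the largest difference of the 36 genes in both genotypes. The gene is on chromosome 2 (154559407 to 154569892, minus strand). In controls 1 to 5 it was at 53.2, 49.9, 52.4, 60.5 and 56.9 CPM in the anterior piece and at 42.1, 42.4, 46.5, 46.0 and 54.5 CPM in the posterior piece. Each embryo was lower behind than in front, although the groups overlapped through the posterior library of control 5. The log2 fold change was −0.24 (SE 0.0756, adjusted p = 0.0343). In DKO embryos 1 to 4 E2f1 was at 67.5, 63.2, 58.3 and 56.8 CPM in the anterior and at 49.1, 49.3, 47.6 and 52.4 CPM in the posterior piece, with no overlap. Its log2 fold change there was −0.31 (SE 0.068, adjusted p = 0.00997), which is 0.809 of the anterior level. The call in controls was lost without control embryo 1 (adjusted p = 0.114), 2 (0.0563), 3 (0.0762) or 4 (0.139), and that in DKO embryos without DKO embryo 1 (0.0931) or 2 (0.0679).

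The 2 cyclin E genes, whose proteins activate CDK2 for S phase entry, lay on the same side of 0 as E2f1 and did not pass. Ccne1 had a log2 fold change of −0.051 (SE 0.0474) in controls and −0.17 (SE 0.0693, adjusted p = 0.135) in DKO embryos, where it passed with all 18 libraries in one fit (adjusted p = 0.0496), and its levels ranged from 97.5 to 128 CPM over the 18 libraries. Ccne2 ranged from 47.5 to 59.5 CPM.

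Prim1 makes the RNA primers from which polymerase alpha starts. Its position is chromosome 10, 128015168 to 128030037, plus strand. In controls 1 to 5 it was at 76.6, 71.2, 74.2, 73.7 and 83.2 CPM in the anterior piece and at 64.3, 59.4, 65.9, 64.6 and 70.6 CPM in the posterior piece, so that every posterior library lay below every anterior one. The log2 fold change was −0.22 (SE 0.0559, adjusted p = 0.011, and 0.0533 without control embryo 1). The DKO libraries were at 74.5, 74.0, 75.1 and 76.8 CPM in front and 68.3, 65.4, 63.4 and 70.4 CPM behind, again without overlap, but the change of −0.16 (SE 0.0527) had an adjusted p of 0.0566. It passed by DESeq2 (0.0287), with all 18 libraries in one fit (0.0378), with the embryo as a random effect (0.0498) and without DKO embryo 4 (0.0428), and in none of the other 9 alternatives. Its partner Prim2 had −0.11 in controls and did not pass. The polymerase alpha subunits Pola1 and Pola2 had −0.093 and −0.097, the polymerase delta subunit Pold1 and the polymerase epsilon subunit Pole had 0.0053 and 0.088, and none of these passed.

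Rfc4 is 1 of 5 subunits of the clamp loader. Its gene (chromosome 16, 23113943 to 23127737, minus strand) overlaps Eif4a2 on the opposite strand. Whether reads were counted by strand is not stated, so reads of these 2 genes may be mixed. In controls it was at 70.9, 71.2, 71.5, 78.5 and 78.9 CPM in front and at 68.0, 63.4, 66.3, 64.2 and 62.7 CPM behind, with no overlap between the groups. The log2 fold change was −0.19 (SE 0.0476, adjusted p = 0.0102, and 0.0552 without control embryo 4). In DKO embryos Rfc4 did not pass. It was at 69.1, 77.9, 64.0 and 71.2 CPM in front and at 72.3, 66.7, 65.9 and 82.2 CPM behind, a change of 0.028 (SE 0.0861, adjusted p = 0.88) that was −0.046 without DKO embryo 4 and 0.11 without DKO embryo 2. The difference between these changes was 0.22 (SE 0.0941), with an unadjusted p of 0.0333 and an adjusted p of 0.999, and it was 0.15 without DKO embryo 4 and 0.30 without DKO embryo 2. The other loader subunits Rfc1, Rfc2, Rfc3 and Rfc5 did not pass in either genotype.

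Pcna encodes the clamp itself. In controls 1 to 5 it was at 559, 579, 512, 468 and 432 CPM in front and at 497, 519, 498, 445 and 412 CPM behind. In DKO embryos 1 to 4 the values were 524, 523, 549 and 534 CPM in front and 519, 489, 521 and 519 CPM behind. It was lower behind in each of the 9 embryos, and controls 4 and 5 were the lowest in both pieces. The log2 fold change was −0.10 in controls (SE 0.0867, adjusted p = 0.438) and −0.054 in DKO embryos (SE 0.0506, adjusted p = 0.553). With the embryo as a fixed block, it passed in controls (adjusted p = 0.0448) and not in DKO embryos (0.598). With the embryo as a random effect in limma-voom the call in controls was lost (adjusted p = 0.225). The level of Pcna is uncertain, because an annotated processed pseudogene, Pcna-ps2, held 81.8 to 222 CPM and reads may be divided between them. Pcna-ps2 was highest in controls 4 and 5, at 222 and 212 CPM in front and 194 and 168 CPM behind, where Pcna was lowest, and the sum of both was 612 to 690 CPM in anterior and 580 to 639 CPM in posterior controls. In DKO embryos 1 to 4 the sum was 621, 629.5, 644 and 633 CPM in front and 605, 570.4, 615 and 646 CPM behind, so that for the sum DKO embryo 4 was higher behind and the other 8 embryos lower. Fen1 and Lig1, which trim and seal Okazaki fragments, ranged from 129 to 170 and from 233 to 299 CPM and did not pass.

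Mcm10 moved the other way. The gene spans 4989714 to 5012791 of chromosome 2, minus strand. In controls it was at 111, 121, 118, 116 and 109 CPM in front and at 130, 132, 126, 131 and 120.0 CPM behind, higher behind in every embryo, with control 2 in front above control 5 behind. The log2 fold change was 0.15 (SE 0.0436, adjusted p = 0.0221). The call was lost without control embryo 1 (adjusted p = 0.122), 3 (0.0554) or 4 (0.0984). In DKO embryos it was at 112, 100, 123 and 123 CPM in front and at 118, 120, 144 and 138 CPM behind, a change of 0.19 (SE 0.0887, adjusted p = 0.196).

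Gins3, a subunit of the GINS complex, had the largest change in its role group, on the opposite side of 0 from Mcm10. In controls it was at 27.2, 29.7, 27.8, 30.2 and 28.7 CPM in front and at 24.5, 26.0, 27.6, 26.9 and 22.6 CPM behind, and in DKO embryos at 31.9, 30.6, 30.5 and 27.1 CPM in front and 26.2, 28.6, 25.5 and 24.5 CPM behind. Each embryo was lower behind, with changes of −0.17 (SE 0.0659, adjusted p = 0.0835) and −0.20 (SE 0.0807, adjusted p = 0.134). With the embryo as a block, the change in controls passed (adjusted p = 0.0421) and that in DKO embryos did not (0.128). The other 3 GINS subunits, which form a complex with 1 copy of each, had log2 fold changes of 0.059 (Gins1), 0.0077 (Gins2, −0.016 with upper quartile scaling) and 0.030 (Gins4) in controls, where Cdc45 had −0.0076, and none passed.

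Licensing genes gave 0 calls of 10 in either genotype, where 25.4% of all genes were called in controls and 18.5% in DKO embryos. Their log2 fold changes in controls ran from −0.079 for Mcm5 to 0.11 for Orc1. The summed level of Mcm2 to Mcm7 was 2475, 2660, 2284, 2300.2 and 2336 CPM in anterior controls and 2447, 2393, 2310.1, 2422 and 2262 CPM in posterior controls. In DKO embryos the sum was 2373, 2237, 2569 and 2373 CPM in front and 2310.4, 2383, 2444 and 2379 CPM behind. The 4 groups overlapped, with means of 2411 ± 158 (SD, n = 5), 2367 ± 78.0 (n = 5), 2388 ± 137 (n = 4) and 2379 ± 54.6 CPM (n = 4). Orc1, the largest subunit of the origin recognition complex, was at 35.6, 39.0, 33.1, 37.9 and 40.4 CPM in front and at 42.2, 41.6, 39.3, 38.7 and 38.5 CPM behind in controls. In DKO embryos it was at 35.6, 32.7, 36.6 and 36.2 CPM in front and at 40.4, 35.8, 42.9 and 39.1 CPM behind. It was higher behind in 8 of 9 embryos, the exception being control 5, and did not pass (0.11, adjusted p = 0.229 in controls and 0.17, adjusted p = 0.15 in DKO embryos).

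Of the nucleotide genes, Rrm2, the regulated small subunit of ribonucleotide reductase, had the largest change. In controls 1 to 5 it was at 516, 525, 418, 454 and 449 CPM in front and at 449, 435, 411, 434 and 416 CPM behind. In DKO embryos it was at 467, 441, 483 and 431 CPM in front and at 409, 412, 415 and 399.7 CPM behind, with no overlap. The changes were −0.14 (SE 0.0631, adjusted p = 0.14) and −0.15 (SE 0.056, adjusted p = 0.0934), and each of the 9 embryos was lower behind. The large subunit Rrm1 was also lower behind in each embryo, at −0.098 and −0.072, and Tyms, which makes thymidylate, was at 0.050 and 0.14. None of the 3 passed by edgeR without the embryo as a block. With it, Rrm2 passed in controls (−0.13, adjusted p = 0.0309) and not in DKO embryos (adjusted p = 0.124), where it passed by DESeq2 (adjusted p = 0.0286).

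**Figure D2:**
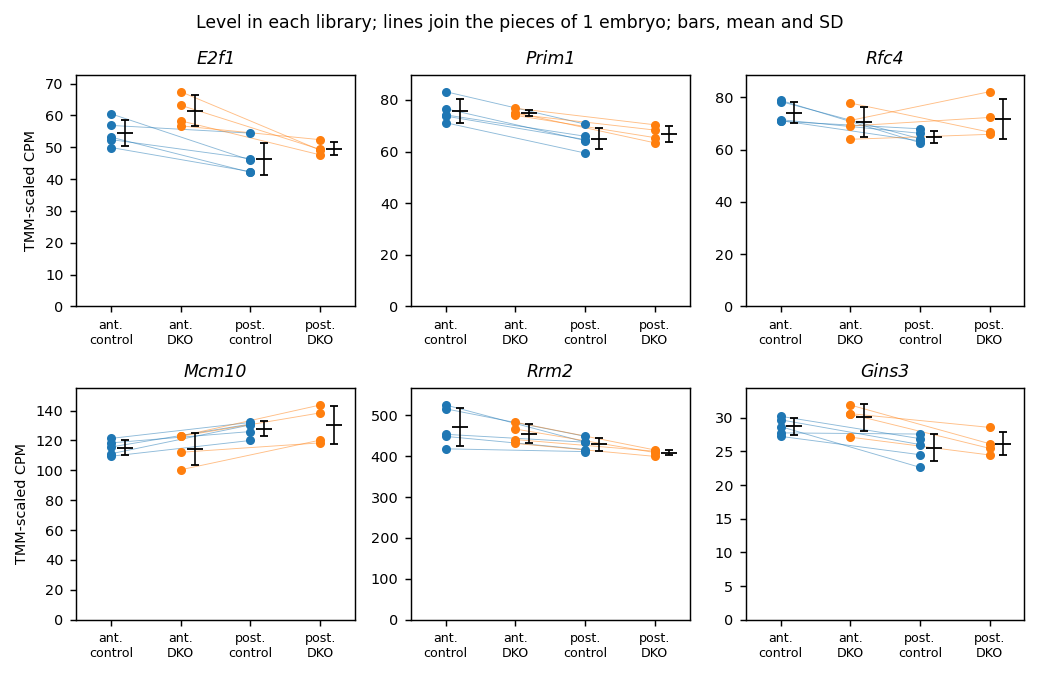
TMM-scaled CPM of E2f1, Prim1, Rfc4, Mcm10, Rrm2 and Gins3 in all 18 libraries, with axes from 0. Points are libraries, lines join the 2 pieces of an embryo and bars give the mean and SD of a group. E2f1, Prim1, Rrm2 and Gins3 are lower behind in each of the 9 embryos and Mcm10 is higher, while Rfc4 is lower in the 5 controls and in 1 of 4 DKO embryos.

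The 2 pieces of an embryo were then set against each other as a ratio of CPM, as a description of the same measurements. E2f1, Prim1, Rrm2, Rrm1, Pcna and Gins3 were lower behind in 9 of 9 embryos and Mcm10 was higher in 9 of 9, while the other 29 genes were mixed. Among 6843 genes with a level at least that of the lowest member, 737 (10.8%) were lower and 755 higher in all 9 embryos. The log2 ratio of Prim1 ran from −0.26 to −0.12 and that of Mcm10 from 0.079 to 0.26, whereas that of E2f1 ran from −0.46 to −0.063. With the embryo as a block in the fit, 7 of the 36 genes passed in controls, where 33.6% of all genes did. The 3 further genes were Rrm2, Gins3 and Pcna, with the values given above. In DKO embryos the block left E2f1 alone (adjusted p = 0.0238, with 19% of all genes called).

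**Figure D3:**
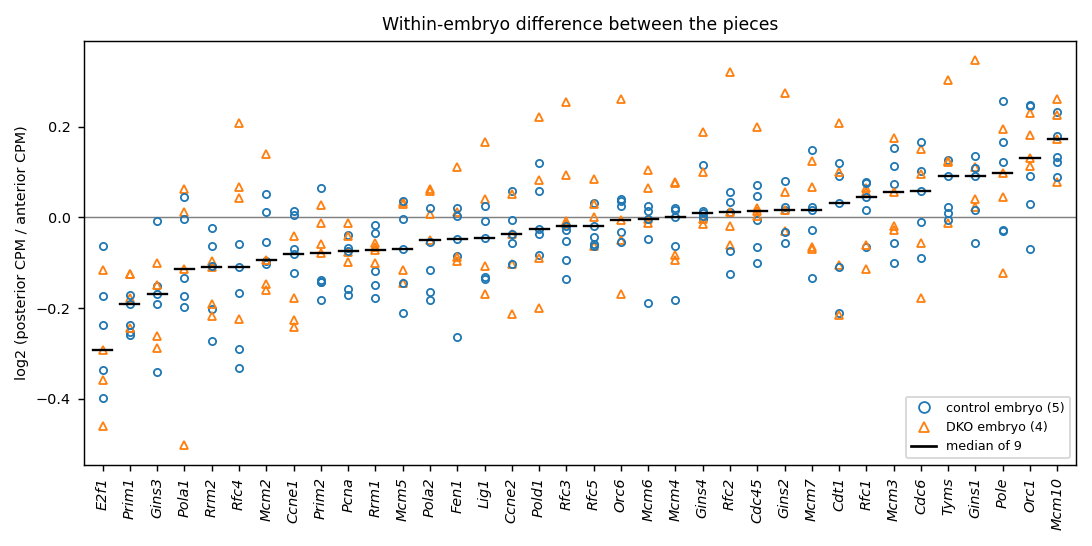
Log2 ratio of posterior to anterior CPM within each embryo for the 36 genes, ordered by the median of 9. Circles are the 5 control and triangles the 4 DKO embryos, and the black line is the median. E2f1 and Prim1 at the left lie below 0 and Mcm10 at the right lies above 0 in all 9 embryos, while most genes straddle 0.

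These differences were small beside those of the whole table. The median size of the log2 fold change in controls was 0.054 for the members and 0.091 for 6846 other genes with at least the lowest mean count of a member, 579 counts. Of those other genes 23.3% passed. In DKO embryos the values were 0.060 and 0.092, with 13.9% of 6716 other genes past the threshold. The 95% intervals of all 36 genes lay within 0.5 on the log2 scale in each comparison. Their outer bounds were −0.40 (E2f1) and 0.30 (Pole) in controls, and −0.46 (E2f1) and 0.38 (Mcm10) in DKO embryos.

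The makeup of the pieces differed far more than these genes did. The summed level of 12 axial bud markers was 78.0 to 96.1 CPM in anterior and 530 to 888 CPM in posterior controls, and 12 of 12 were higher behind. The 12 neuron markers summed to 182 to 341 CPM in front and 66.2 to 101 CPM behind (10 lower, 1 higher). The 8 neural progenitor markers summed to 751 to 889 and 316 to 437 CPM (8 of 8 lower). The differentiating muscle markers summed to 110 to 193 and 41.5 to 55.1 CPM, with 8 of 9 tested lower and Myh3 at or near 0 behind. The primitive erythroid markers summed to 1073 to 5242 and 1530 to 2532 CPM, with 10 of 10 estimates below 0 and 0 of 10 past the threshold. In DKO embryos these summed to 1361 to 2288 CPM in front and 1853 to 3828 CPM behind. There 10 of 10 lay above 0, 0 passed, and 7 passed as higher with the embryo as a block. The other lists kept their direction in DKO embryos: 12 of 12 axial bud markers were higher. Lower were 10 of 12 neuron, 8 of 8 neural progenitor and 9 of 9 muscle markers tested. The part of tissue makeup in the changes of E2f1, Prim1, Rfc4 and Mcm10 was not tested.

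The next question was whether replication genes differ between DKO and control embryos, and none of the 36 passed the threshold. Meis1 and Meis2 did not pass either. Their log2 fold changes were −0.30 and −0.41 in the anterior piece (adjusted p = 0.123 and 0.0522) and −0.55 and −0.52 in the posterior piece (adjusted p = 0.336 and 0.196). In the anterior piece 0 of 36 genes passed (6 of 15238 genes, or 0.0394%, did), and in the posterior piece 0 of 36 passed (2 of 15936, or 0.0126%). The interaction of region and genotype gave 0 of 36 and 0% of 16428 genes. An unadjusted p below 0.05 was found for 2 of the 36 in the anterior piece (5.56%, against 13% of all genes), 1 in the posterior piece (2.78%, against 11%) and 1 in the interaction (2.78%, against 3.45%). DESeq2 also put 0 of the 36 past the threshold in each, while calling 296, 161 and 10 genes over the whole table. The 95% intervals ran from −0.38 (Pole) to 0.32 (E2f1) in the anterior piece, from −0.37 (Pole) to 0.34 (Rfc2) in the posterior piece and from −0.34 (Pole) to 0.41 (Rfc4) for the interaction.

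**Figure D4:**
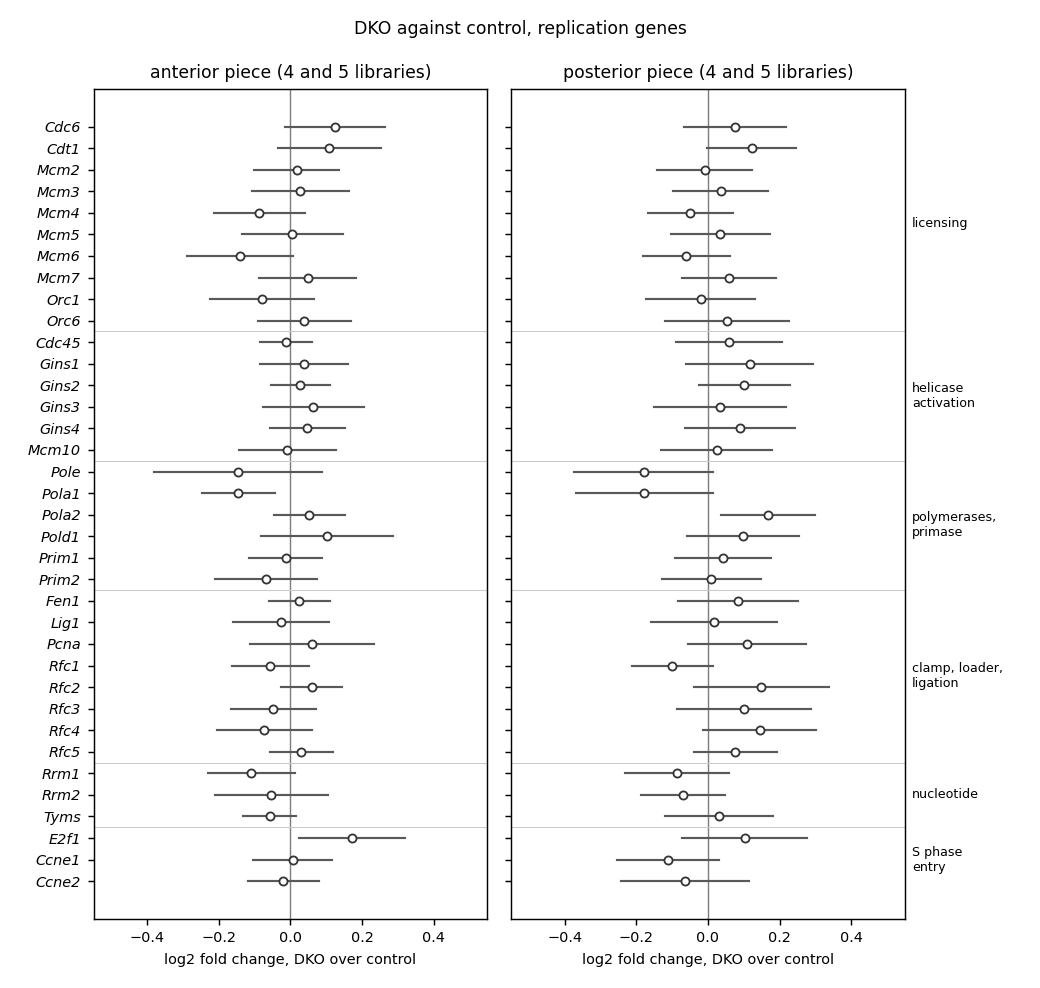
Log2 fold change of each of the 36 genes, DKO over control, in the anterior piece (left) and the posterior piece (right), grouped by role. Points are edgeR estimates and bars 95% intervals. No point is filled, because none passed an adjusted p of 0.05, and the bars lie between −0.38 and 0.34.

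In the anterior piece the 3 genes with the smallest p were Pola1, E2f1 and Mcm6. Pola1, the catalytic subunit of polymerase alpha, was at 86.8, 91.3, 82.5, 91.6 and 86.9 CPM in controls and at 75.4, 76.9, 82.0 and 83.6 CPM in DKO embryos. The DKO libraries were the lower ones except that DKO 4 exceeded control 3. The log2 fold change was −0.15 (SE 0.0462), with an unadjusted p of 0.00899 and an adjusted p of 0.23. Anterior E2f1, with the values given above, lay higher in DKO embryos (0.17, SE 0.0672, unadjusted p = 0.0269, adjusted p = 0.324), and the groups overlapped. Mcm6 was at 405, 434, 367, 357 and 363 CPM in controls and at 334, 332, 374 and 359 CPM in DKO embryos, a change of −0.14 (SE 0.0675, unadjusted p = 0.0614, adjusted p = 0.409) with overlap. The members' median was 0.0052, with 19 above 0 and 17 below, and that of all genes was 0.00014.

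In the posterior piece the smallest p-values were those of Pola2, Cdt1 and Pole. Pola2, the second subunit of polymerase alpha, was at 88.9, 86.7, 98.8, 94.2 and 83.8 CPM in controls and at 100.1, 97.9, 103 and 106 CPM in DKO embryos, where DKO 2 alone lay below the highest control. The change was 0.17 (SE 0.0596, unadjusted p = 0.016, adjusted p = 0.415), on the other side of 0 from its partner Pola1 (−0.18, SE 0.0876, adjusted p = 0.475). Cdt1, the licensing factor that delivers the MCM ring, was at 118, 111, 119, 116 and 109 CPM in controls and at 119, 127, 119 and 134 CPM in DKO embryos. Its groups did not overlap, which held for 4.29% of all genes. The lowest DKO library and the highest control were 118.6 and 118.5 CPM, and the change of 0.12 (SE 0.0566) had an adjusted p of 0.458. Pole, the catalytic subunit of polymerase epsilon, was at 94.9, 95.9, 93.9, 82.4 and 106 CPM in controls and at 87.0, 79.5, 95.6 and 72.3 CPM in DKO embryos (−0.18, SE 0.0884, adjusted p = 0.474).

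The posterior members had a median of 0.039, with 25 above 0 and 11 below, where that of all genes was 0.011. The median moved with the embryos included. Without DKO embryo 4 it was 0.013, with 20 above 0 and 16 below, and all genes had −0.0016, whereas without DKO embryo 2 it was 0.067. With any other embryo left out it lay between 0.029 and 0.054. Of the listed cell type markers 0 passed the adjusted threshold between genotypes in either piece. In the posterior piece 11% of all genes had an unadjusted p below 0.05. There the 10 primitive erythroid markers summed to 1530 to 2532 CPM in controls and 1853 to 3828 CPM in DKO embryos. Of their estimates 10 of 10 lay above 0, 7 with an unadjusted p below 0.05. In the anterior piece 10 of 10 lay below 0 and 0 had such a p, with sums of 1073 to 5242 and 1361 to 2288 CPM. The 8 posterior sclerotome markers summed to 411 to 561 and 237 to 439.6 CPM (8 of 8 below 0, 4 with an unadjusted p below 0.05). Of 7 posterior gut endoderm markers 6 lay above 0, and 3 higher ones had such a p. In the anterior piece 13% of all genes had an unadjusted p below 0.05. There the 5 neural crest markers summed to 111 to 127 and 125 to 161 CPM (5 of 5 above 0, each with an unadjusted p below 0.05). The 8 anterior sclerotome markers summed to 431 to 479 and 302 to 386 CPM. Of these 7 lay below 0, and 4 lower and 1 higher had such a p. Of 8 anterior neural progenitor markers 6 lay above 0, and 4 higher ones had such a p. The part of these in the members' values was not tested. In the posterior library of DKO embryo 4 Rfc2 was at 187 CPM, Rfc3 at 108, Fen1 at 170, Gins2 at 130, Tyms at 128 and Cdc45 at 84.5 CPM, each the highest of the 18, and Pola1 at 59.0 and Mcm2 at 363 CPM were the lowest. The part of its relation to exon length, given above, in these values was not tested. Without DKO embryo 4 the changes of Pola1, Pole and Pola2 were −0.095, −0.12 and 0.14.

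Among replicates the pairs of the 36 genes had correlations of both signs. After removal of group means, the Pearson correlation of pairs of members over the 18 libraries had a median of 0.036 over 630 pairs, and 53.2% of the pairs were positive. These pairs share libraries, and the figure is a description. It does not speak for subgroups, such as Mcm2 to Mcm7. The sum of these had an SD of 158 CPM in anterior controls, where the single genes had 19.6 to 37.5 CPM. In posterior DKO libraries the SD of the sum was 54.6 CPM, and the single genes had 9.93 to 25.7 CPM. In the anterior piece, both embryos with 24 somites had the lowest median deviation of the members from their group mean (−0.043 in each, with 11 of 36 genes above the mean), and both embryos with 20 somites had the highest (0.047 and 0.028, with 22 and 24 genes above). The posterior libraries did not repeat this order: their extremes were 0.040 and −0.035, both in embryos with 23 somites. Both embryos with 24 somites carry a male sex label and both with 20 somites a female one. At 23 somites the anterior deviations were 0.0057 in the embryo labelled female and −0.0025 and 0.0056 in those labelled male. With 2 embryos at 20 and 2 at 24 somites the pattern was not tested.

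Further cell cycle genes were read from lists written by function. Among 36 other replication factors, 1 rose (2.78%) and 4 fell (11.1%) in the posterior piece of controls, where 12.1% of all genes rose and 13.3% fell. Ung, the uracil glycosylase, rose by 0.34 (adjusted p = 0.0329). Pole3, an accessory polymerase epsilon subunit, had −0.25 (adjusted p = 0.0115), and Atad5, which unloads PCNA, −0.19 (adjusted p = 0.0379). The other 2 were Rpa1 and Rpa3 of the single-strand binding complex. Of 12 genes of nucleotide supply 1 rose, Mthfd1 (0.22), and 1 fell, Dck (−0.14). Of 13 genes of chromatin assembly and DNA methylation 0 rose and 2 fell, the histone chaperone gene Asf1b (−0.26) and Slbp, which binds histone messages (−0.18). The shares were thus 8.33% in each direction for nucleotide supply, and 0% and 15.4% for the chromatin list. These lists had medians of −0.018, −0.072 and 0.012, and the 36 genes −0.035.

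Of 23 genes of G1 and S phase control, 3 rose and 3 fell (13% each way, near the share of all genes), with a list median of −0.021. Single genes of this list changed by more than any of the 36. E2f2, an activator of the same family as E2f1, fell by 0.96 on the log2 scale (adjusted p = 2.24e-06), and Cdk6, a partner of D-type cyclins, and Mycn rose by 0.61 and 0.45 (adjusted p = 0.000834 and 0.000801). The others were Ccnd1 (higher), E2f8 and Tfdp2 (both lower). Of the 7 CDK inhibitors, 5 were tested, and 2 fell: Cdkn1b, which encodes p27, fell by 0.84 (adjusted p = 2.62e-05), and Cdkn2c did so at a mean of only 26.6 counts. Of 28 genes of G2 and mitosis 2 rose (7.14%) and 5 fell (17.9%), with a list median of −0.068. Among them were Cdc25b, a phosphatase that activates mitotic CDK1, at −1.31 (adjusted p = 3.59e-07), Nusap1 at −0.43 (adjusted p = 7.24e-05) and Kif20a at 0.18 (adjusted p = 0.00505). The summed level of these 28 genes was 5346 to 5575 CPM in anterior and 5060 to 5218 CPM in posterior controls, without overlap, and 5118 to 5329 and 4859 to 5121 CPM in DKO embryos, where the groups overlapped. In DKO embryos the counts, higher and lower, were 0 and 1 of the other replication factors, 3 and 2 of the G1 and S phase control genes, 0 and 4 of 5 CDK inhibitors, 0 and 3 of the G2 and mitosis genes, and 0 for the nucleotide supply and chromatin lists, where 8.76% of all genes rose and 9.7% fell. With the embryo as a block, the counts in controls were 2 and 8 of the other replication factors, 2 and 3 of nucleotide supply, 0 and 2 of the chromatin list, 6 and 6 of G1 and S phase control, 0 and 4 of the CDK inhibitors and 2 and 9 of the G2 and mitosis genes, with 33.6% of all genes called. In DKO embryos the block gave 0 and 0 of the other replication factors, 1 and 0 of nucleotide supply, 0 and 1 of the chromatin list and 4 and 3 of G1 and S phase control, and left the counts of the other 2 lists as they were. Between genotypes 0 genes of these 6 lists passed in either piece.

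**Figure D5:**
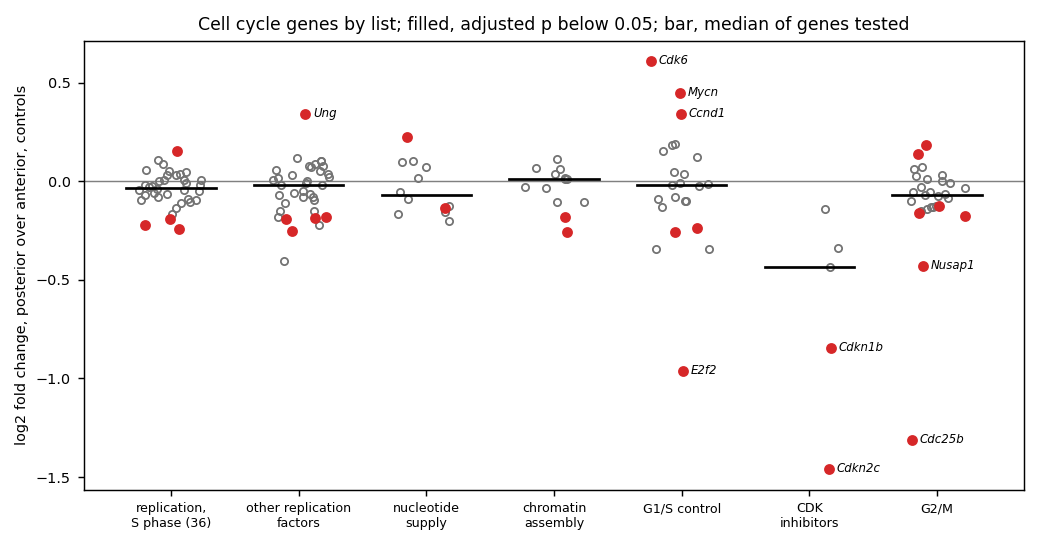
Log2 fold change, posterior over anterior in controls, of the 36 genes and of 6 lists of other cell cycle genes. Each point is a gene tested, filled red points passed an adjusted p of 0.05 and bars are medians. The 36 genes lie between −0.24 and 0.15, whereas E2f2, Cdkn1b and Cdc25b lie at −0.96, −0.84 and −1.31 and Cdk6 at 0.61.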

How the data were processed

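The authors deposited 1 table of RSEM expected counts per Ensembl gene for GRCm38, not scaled between libraries; CASAVA, cutadapt and RSEM are named in the submitters' processing notes. The aligner, versions and use of strand are not given in the sources used here, and 15 of the 36 genes overlap a gene on the opposite strand. Libraries were single-end (61 bases), per the labels. Of 53465 identifiers, 53360 were found in GENCODE M21, which gave symbols, coordinates and exon lengths.

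Expected counts were rounded and fitted with edgeR 4.0.16 in R 4.3.3 (filterByExpr with the groups compared, TMM, glmQLFit, glmQLFTest), and p-values were adjusted over all genes tested, at a threshold of 0.05. Standard errors are the size of the log2 fold change divided by the square root of F. CPM used TMM factors of all 18 libraries, and CPM per kb the length of the union of all annotated exons of a gene. The code was tested on simulated data.

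The labels give no replicate numbers, so embryos were numbered in accession order and their pieces matched on genotype, sex label and somite number. Same-embryo libraries deviated together (correlations of 0.256 to 0.570 over 16428 genes in 9 pairs, and −0.283 to 0.0916 between embryos), and the embryo entered as a block in alternatives. Alternatives covered scaling, filter, tool, covariates and each embryo left out.

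The members and lists were chosen with earlier results of these data known. Values per library were given for the MCM sum, Pcna, the gene of each role group with the largest change between pieces in controls, the 3 genes with the smallest p in each DKO comparison and genes past the threshold. From each companion list up to 3 called genes were named, with the largest changes and a mean of at least 50 counts. Genes outside this rule, the motif letters and the promoter stretches other than those of Orc1 and Gins3 were chosen after values were seen. The reads carry no molecular identifiers, and intervals of the promoter share cover counting error only.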

Additional observations from a re-analysis of the deposited data

Results flagged for a closer look

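In groups of 4 or 5 libraries, 8 of 144 levels (36 genes in 4 groups) had 1 library far from the rest by Dixon's criterion, and chance gives about 1 in 20. Lig1 was at 287 CPM in anterior DKO 3, where the other anterior DKO libraries were at 259 to 262. Pcna was at 489 CPM in posterior DKO 2, below the 519 to 521 of the others. Rfc2 was at 187 CPM in posterior DKO 4, above 142 to 148. Gins1 was at 58.9 CPM in posterior control 2, above 49.6 to 51.4. Mcm3 was at 414 CPM in anterior control 2, above 356 to 371. Mcm4 was at 332 CPM in posterior control 4, above 316 to 318. Rrm1 was high in both pieces of DKO embryo 2, at 389 CPM in front (others 338 to 347) and 362 CPM behind (others 325 to 330).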

How the results depend on the processing

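The share of all genes called is given in brackets. In controls, 4 of the 36 genes passed between the pieces as reported (25.4%), and 7 with the embryo as a replicate block (33.6%). There 1 to 4 passed when an embryo was left out (19% to 22.2%), and 3 to 6 under the other alternatives (11.7% to 34.1%). In DKO embryos, 1 passed as reported (18.5%), 3 with DESeq2 (21.5%) and 3 with all 18 libraries in one fit (21.7%). With the embryo as a random block 2 passed (20.8%), and 0 to 2 when an embryo was left out (11.1% to 16.2%). No direction of a called gene reversed. Both DKO comparisons and the interaction gave 0 of 36 under every alternative run, where at most 1.94% of all genes passed. The block was run for the interaction and for the comparisons between pieces, not for the DKO comparisons, where each embryo gives 1 library. In controls Prim1 and Rfc4 each passed in 13 of 14 alternatives, E2f1 in 10 and Mcm10 in 9; E2f1 in DKO embryos passed in 11 of 13. Other scaling moved the median of all genes by at most 0.024 on the log2 scale. The stricter motif letters TTTCGCGC and TTTGGCGC were in 32.1% of member windows and 1.21% of coding genes.

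The main limits are the 4 and 5 embryos per group, unknown use of strand in counting, the pseudogene of Pcna, and the mixture of tissues in each piece. Between genotypes, estimates of 0.17 (anterior E2f1), 0.17 (posterior Pola2) and −0.18 (posterior Pole) did not pass. P-values measure the spread between these embryos.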

Other observations

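Of the 5 CDK inhibitors tested, 3 had an unadjusted p below 0.05 in the anterior DKO comparison (2 higher, 1 lower) and 1 in the posterior one, where 13% and 11% of all genes did, and 0 passed the adjusted threshold. They are named here after their values were seen. Cdkn1a, which encodes p21, had a log2 fold change of 0.61 in the anterior DKO libraries (SE 0.0895, adjusted p = 0.052) and 1.06 in the posterior ones (SE 0.167, adjusted p = 0.0978), neither past the threshold. Cdkn1c, which encodes p57, had 0.46 (adjusted p = 0.143) and −0.13 (adjusted p = 0.69), and Cdkn1b −0.24 (adjusted p = 0.319) and −0.094 (adjusted p = 0.771). In the same comparisons the 36 replication genes ran from −0.15 to 0.17 and from −0.18 to 0.17.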
